A study of Mus musculus with 4 samples.

Results

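The genes of 7 families of amino acid transporters were examined in organoids of the mouse intestine, which are epithelial cultures that form in a gel matrix (Matrigel). They were those with a symbol of the families Slc1a, Slc3a, Slc6a, Slc7a, Slc36a, Slc38a or Slc43a in the array's annotation, taken from probe sets that name 1 gene. There were 63 such genes, read by 125 probe sets, of 18193 genes and 45101 probe sets in all. Of the 63, 60 are transporter genes. The other 3 (Slc36a1os, Slc6a19os and Slc7a6os) are genes on the opposite strand that carry a transporter's name and encode none. Each gene was read by its brightest probe set over the 4 arrays.

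All organoids carried floxed Apc alleles (Apc fl/fl). The 4 groups were organoids given 4-hydroxytamoxifen (4OHT) for 24 h and collected at day 4, untreated organoids collected at day 4, 4OHT-treated organoids collected at day 6 and untreated organoids collected at day 6. Per the series' design text, 4OHT served to induce recombination of Apc, and the labels call the treated organoids Apc-deficient and the untreated ones normal. What drives the recombinase, the part of the gut the organoids came from and the age of the donor animals are not stated in the labels. Organoids that received 4OHT but lack floxed Apc are not analysed here, so that an effect of 4OHT itself cannot be told apart from recombination. Each group was 1 array, so that the number of arrays limits the precision, and nothing states that the arrays came from separate cultures.

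Enterocytes take up amino acids from the gut lumen through transporters in the brush border and release them to the blood through others in the basolateral membrane. Several of these are heterodimers in which a heavy chain (Slc3a1 or Slc3a2) brings a light chain of the Slc7 family to the membrane. Dividing cells of many tissues depend on a further set, such as Slc1a5 and Slc7a5, that feeds glutamine, leucine and other amino acids into growth. The product of Apc holds beta-catenin low by taking part in its destruction, so that cells without it have active Wnt signalling.

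Unless another contrast is named, a difference is 4OHT minus untreated in log2(intensity + 16), where changes of dim genes look smaller than they are. A gene was counted as tested where its highest intensity on the 4 arrays reached 20.9, the median of all values, which 43 of the 63 genes and 13192 of all genes did. Of the 43, 19 had 2 or more probe sets past this level. Their probe sets all differed in the same direction at day 4 for 5 of the 19, at day 6 for 11 and on each day for 4. A direction given below is therefore that of the brightest probe set unless others are named. "Rose" and "fell" are used of genes past limma's test over both days, with day as an additive term and Benjamini-Hochberg adjustment over all 13192 genes. That test has 1 residual degree of freedom, which is how far the 4OHT effect of day 6 departs from that of day 4. It does not measure the spread between cultures. The variance behind each SE and p-value leans mostly on one pooled over all tested genes (15.2 prior degrees of freedom). An SE can therefore be smaller or larger than a gene's own departure between the days. Over all genes it called 128 that rose (0.970%) and 297 that fell (2.25%). No gene of the array passed once the filter was dropped, the pseudocount set to 64 or the day term removed, so each call below holds for the stated settings.

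The 4OHT arrays had lower signal for most of the brush border transporters, and 3 of the family fell. They were Slc3a1 and Slc7a9, which together form the transporter of cystine and basic amino acids, and Slc6a20a, which carries proline and other imino acids. None of the 43 tested genes rose. At an unadjusted limma p under 0.05, 5 were higher, beside 6.44% of all genes, and 6 were lower, beside 7.47%. At day 6, 6 of the 43 were at least 2-fold lower, beside 2.97% of all genes: Slc1a1, Slc3a1, Slc6a19, Slc6a20a, Slc7a9 and the serotonin transporter gene Slc6a4. On their brightest probe sets, growth-linked members lay mostly above 0 and mostly within 2-fold, and none passed the test. Slc1a4 was past 2-fold at day 6.

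The sequences around the annotated starts of 5 members are shown because 4 of them are the brush border genes lower with 4OHT on both days and past 2-fold at day 6, and the last is the growth-linked gene past 2-fold in the other direction. Each runs 5′ to 3′ on the gene's strand from 150 bases before the start to 25 after it, from RefSeq on GRCm38.p6. Capitals mark matches, on either strand, to GTTAAT (part of the HNF1 motif), CAAAGTCCA (HNF4), TTTATNG (CDX), CTTTGAT (TCF/LEF), CACGTG (E-box) or TTGCATCA (ATF4 with a C/EBP partner). No match overlapped another in these windows.
Slc3a1: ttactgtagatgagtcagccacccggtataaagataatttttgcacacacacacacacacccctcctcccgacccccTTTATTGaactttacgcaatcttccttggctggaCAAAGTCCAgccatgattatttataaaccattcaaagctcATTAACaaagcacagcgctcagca
Slc7a9: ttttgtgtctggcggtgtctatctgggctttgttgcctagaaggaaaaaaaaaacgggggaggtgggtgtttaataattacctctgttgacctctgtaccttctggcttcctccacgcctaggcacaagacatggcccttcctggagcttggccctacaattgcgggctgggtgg
Slc6a19: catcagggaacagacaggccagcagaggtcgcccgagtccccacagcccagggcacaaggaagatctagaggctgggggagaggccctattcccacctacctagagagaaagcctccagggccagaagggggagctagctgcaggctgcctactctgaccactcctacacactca
Slc6a20a: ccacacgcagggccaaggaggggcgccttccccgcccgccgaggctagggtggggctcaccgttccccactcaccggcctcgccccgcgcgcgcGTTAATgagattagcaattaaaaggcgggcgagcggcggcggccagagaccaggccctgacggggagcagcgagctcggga
Slc1a4: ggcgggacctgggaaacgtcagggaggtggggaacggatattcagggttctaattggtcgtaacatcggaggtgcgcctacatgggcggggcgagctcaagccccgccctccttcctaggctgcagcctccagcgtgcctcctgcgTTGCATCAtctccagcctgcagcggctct
They lie at chr17:85028197-85028371 (plus strand), chr7:35448942-35449116 (plus), chr13:73692612-73692786 (minus), chr9:123678808-123678982 (minus) and chr11:20332689-20332863 (minus). Slc7a9 has 2 annotated starts, of which the first listed is shown. The window of Slc3a1 held the CDX letters from base -73, the HNF4 letters from base -39 and the HNF1 letters, on the other strand, from base 2, counted from the start. That of Slc6a20a held the HNF1 letters from base -56, and that of Slc1a4 the ATF4 letters from base -4. Both windows of Slc7a9 and the window of Slc6a19 held none of the 6. Over the 32851 windows of the same length of all genes, the HNF1 letters were in 4.05%, the HNF4 letters in 0.338%, the CDX letters in 6.38%, the ATF4 letters in 0.606%, the TCF/LEF letters in 2.13% and the E-box in 4.97%. Some genes have several windows, so family genes are counted by a match in any of their windows, beside the share of all 27025 genes counted in that way. Of the 31 tested family genes with a window, 3 held the HNF1 letters (Slc3a1, Slc6a20a and Slc7a7), beside 4.73% of all genes. Slc3a1 was the 1 tested family gene with the HNF4 letters, beside 0.400%, and the 1 tested with the CDX letters, beside 7.43%. The ATF4 letters were in 2 tested genes (Slc1a4 and Slc7a7, which has 5 windows), beside 0.718%. Untested family genes are left out of these counts, such as Slc7a15, with the CDX letters, and Slc7a11, with the ATF4 letters. The TCF/LEF letters were found for 3 (Slc38a9, Slc38a10 and Slc7a1), beside 2.47%, and the E-box for 4 (Slc1a7, Slc36a1, Slc38a7 and Slc43a1), beside 5.67%. A match is a run of letters and does not show binding.

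Slc3a1 encodes rBAT, the heavy chain of the cystine transporter of the brush border. Its intensity at day 4 was 40.3 with 4OHT and 93.7 in untreated organoids, and at day 6 it was 175 with 4OHT and 519 untreated. The 4OHT array was the lower of its day both times, by 1.95-fold at day 4 and 2.80-fold at day 6, although the 4OHT array of day 6 lay above the untreated array of day 4. Over both days Slc3a1 fell by 1.22 ± 0.22 (SE, limma adjusted p = 0.00417).

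Slc7a9, the light chain that pairs with Slc3a1, had the same order of arrays. It gave 58.1 with 4OHT and 119 untreated at day 4, and 334 with 4OHT and 734 untreated at day 6. The difference was 1.82-fold at day 4 and 2.14-fold at day 6, and Slc7a9 fell by 0.98 ± 0.21 (SE, limma adjusted p = 0.0146). Each of these chains was read by 1 probe set.

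Slc6a20a had the largest difference of the family at day 6. At day 4 it was dim on both arrays, with 16.5 with 4OHT and 28.3 untreated, and at day 6 it gave 263 with 4OHT and 1149 untreated. The difference was therefore 1.36-fold at day 4, near the level filter, and 4.17-fold at day 6. Slc6a20a fell by 1.25 ± 0.29 (SE, limma adjusted p = 0.0232). The related gene Slc6a20b, also on chromosome 9, was nearly level on its brightest probe set, with a difference of -0.12 at day 4 and -0.01 at day 6. A second probe set of Slc6a20b was equal on the arrays of day 4 and differed by -0.71 at day 6. Whether the probe sets of these related genes bind both transcripts was not tested.

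Slc6a19 encodes B0AT1, the main sodium-coupled transporter of neutral amino acids in the brush border. It gave 18.9 with 4OHT and 26.9 untreated at day 4, and 92.5 with 4OHT and 216 untreated at day 6. It was lower with 4OHT by 0.30 at day 4 and by 1.10 at day 6 on the log2 scale and did not pass the test (-0.70 ± 0.23, SE, limma adjusted p = 0.14). A dimmer probe set of the gene gave the same directions, with -0.20 and -1.15.

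Slc1a1, the brush border transporter of glutamate and aspartate, went in different directions on the 2 days. It gave 122 with 4OHT and 81.2 untreated at day 4, and 105 with 4OHT and 270 untreated at day 6. The differences were 0.51 and -1.25, and their mean did not pass the test (-0.37 ± 0.30, SE, limma adjusted p = 0.67). All 3 of its probe sets were lower with 4OHT at day 6, by 1.17 to 1.92, while at day 4 they ranged from -0.19 to 0.51. The dim gene Slc6a14, a transporter of neutral and basic amino acids, reached the level filter on the untreated array of day 6 alone (13.3 with 4OHT and 35.4 untreated, after 7.63 with 4OHT and 4.18 untreated at day 4) and differed by 0.23 and -0.81. Slc36a1, a proton-coupled transporter of small neutral amino acids found in the brush border and in lysosomes, gave 29.0 with 4OHT and 18.9 untreated at day 4, and 59.6 with 4OHT and 54.3 untreated at day 6. It was the one brush border member higher with 4OHT on both days, by 0.37 and 0.10.

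**Figure D1:**
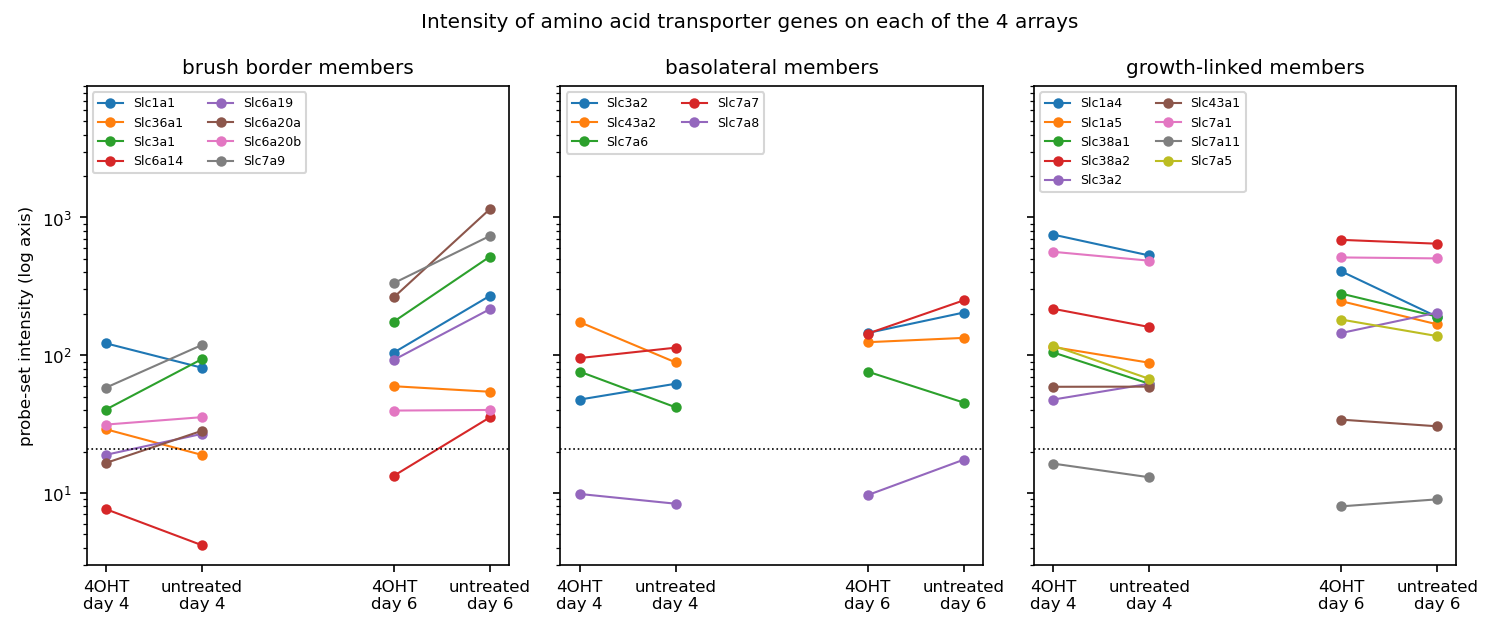
Probe-set intensity (log axis) of each brush border, basolateral and growth-linked member on the 4OHT and untreated arrays of day 4 and of day 6, with 1 point per array and a line joining the arrays of a day; the dotted line is the level filter of 20.9. Slc3a1, Slc7a9, Slc6a19 and Slc6a20a slope upward toward the untreated array on both days, while Slc1a4, Slc1a5, Slc38a1 and Slc7a5 slope downward; heights of different genes are not comparable.

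Of the 8 brush border members, 3 fell, none rose and 5 did not pass; 5 were lower with 4OHT on both days, beside 26.0% of all genes tested. Their median difference was -0.21 at day 4 and -1.10 at day 6, and the medians of all genes tested were 0.06 and -0.0044. At day 4 none of the 8 was 2-fold lower, beside 1.22% of all genes, and at day 6 there were 5, beside 2.97%. After quantile normalization there were 2 at day 4, beside 2.14%, and 3 at day 6, beside 2.07%. None of the 43 tested family genes was at least 2-fold lower on both days, beside 0.796% of all genes, or higher on both, beside 0.205%. On the same arrays 3 of 4 tested enterocyte markers fell: Apoa4, a lipid transport protein (-2.06 ± 0.21, SE), Fabp1, a fatty acid binding protein (-1.53 ± 0.21, SE), and Alpi, the intestinal alkaline phosphatase (-1.23 ± 0.21, SE). Lct, lactase, differed by 0.06 and -1.08 and did not pass, and Sis is not analysed here. The summed intensity of these 4 markers was 296 with 4OHT and 1165 untreated at day 4, and 649 with 4OHT and 2339 untreated at day 6. Fewer enterocytes and less of these RNAs per enterocyte cannot be told apart in such bulk samples. The control probe sets for the 3′ and 5′ ends of Actb lay farther apart on the 4OHT array of each day, by 0.94 more at day 4 and 0.62 more at day 6 in log2 intensity. For Gapdh the gap was wider with 4OHT by 0.87 and 0.56. The part of this RNA measure in the lower transporter signals was not tested.

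The basolateral members did not move as a group. Slc7a7 and Slc7a6 encode the y+LAT light chains that release basic amino acids from the cell in exchange for neutral ones, and they lay on opposite sides of 0. Slc7a7 gave 95.3 with 4OHT and 113 untreated at day 4, and 143 with 4OHT and 250 untreated at day 6. It was lower by 0.22 and by 0.74 without passing (-0.48 ± 0.22, SE, limma adjusted p = 0.34), and its dimmer probe set differed by 0.23 and -0.42. Slc7a6 gave 76.1 with 4OHT on both days, against 41.9 untreated at day 4 and 45.4 untreated at day 6. Both of its 4OHT arrays lay above both untreated arrays, as they did for 4 of the 43 family genes and 9.44% of all genes tested. None of the 43 tested family genes had both 4OHT arrays below both untreated arrays, beside 4.68% of all genes. Slc7a6 was higher by 0.67 and 0.59 and did not pass (0.63 ± 0.21, SE, limma adjusted p = 0.14), and a second probe set differed by -0.01 and 0.53.

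Slc3a2, also known as CD98, is the heavy chain of the basolateral light chains and of Slc7a5, so it is counted in both groups. It gave 47.6 with 4OHT and 62.1 untreated at day 4, and 145 with 4OHT and 204 untreated at day 6. It lay below the untreated array of its day each time without passing (-0.37 ± 0.21, SE, limma adjusted p = 0.47). Slc43a2 (LAT4), which lets branched-chain and other neutral amino acids out of the cell, was 1.81-fold higher at day 4 (174 with 4OHT and 88.8 untreated). At day 6 it differed by -0.09 (124 with 4OHT and 134 untreated). All 3 of its probe sets were higher at day 4, by 0.51 to 0.86, and differed by -0.09 to -0.01 at day 6. Slc7a8 (LAT2), an exchanger of neutral amino acids, stayed under the level filter on all 4 arrays (highest 17.4, untreated at day 6) and was not tested. Over the 5 basolateral members the median was 0.09 at day 4 and -0.38 at day 6, which are the values of the untested Slc7a8. Over the 4 tested members it was 0.23 and -0.27. Of these 4, 2 were lower on both days, beside 26.0% of all genes tested. Slc7a6 was higher on both, beside 32.0%.

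Growth-linked members were mostly higher with 4OHT on their brightest probe sets. Of the 8 tested members, 6 were higher on both days, beside 32.0% of all genes tested. So were 19 of the 43 tested family genes, these 6 among them. Slc3a2 was lower on both, beside 26.0%, and none passed the test. Among the 6, Slc1a4, Slc7a1, Slc38a1 and Slc38a2 each had another probe set past the filter that went the other way on at least 1 day. Slc1a5 was higher on both of its probe sets, and Slc7a5 was read by 1. The median difference was 0.33 at day 4 and 0.11 at day 6 over all 9 members, and 0.37 and 0.23 over the 8 tested. For 6 of the 8 tested members the brightest of the 4 arrays was a 4OHT array, and the exceptions were Slc3a2 and Slc43a1. The same held for 26 of the 43 tested family genes, these 6 among them, and for 44.4% of all genes tested.

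Slc1a4 encodes ASCT1, a sodium-coupled exchanger of alanine, serine and cysteine. It gave 751 with 4OHT and 530 untreated at day 4, and 407 with 4OHT and 190 untreated at day 6. The difference of 1.04 at day 6 made it the single member at least 2-fold higher on that day, beside 0.879% of all genes. The mean over both days was 0.76 ± 0.22 (SE, limma adjusted p = 0.078). Its other 2 probe sets past the level filter differed by -0.31 and 0.44 at day 4 and by -0.04 and 0.03 at day 6, so the value rests on the brightest.

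Slc1a5 (ASCT2), the exchanger that brings glutamine into dividing cells, gave 115 with 4OHT and 88.2 untreated at day 4, and 247 with 4OHT and 168 untreated at day 6. Both of its probe sets were higher with 4OHT on both days, by 0.33 to 0.67. Slc7a5 (LAT1), the light chain of Slc3a2 that takes up leucine in exchange for glutamine, gave 117 with 4OHT and 67.4 untreated at day 4, and 181 with 4OHT and 138 untreated at day 6. It was higher by 0.68 and 0.36 while its heavy chain Slc3a2 was lower by 0.29 and 0.45. Slc38a1 (SNAT1), a sodium-coupled glutamine transporter, gave 105 with 4OHT and 62.1 untreated at day 4, and 280 with 4OHT and 191 untreated at day 6. The means over both days were 0.42 ± 0.21 for Slc1a5, 0.52 ± 0.21 for Slc7a5 and 0.57 ± 0.21 for Slc38a1 (SE, limma adjusted p = 0.39, 0.27 and 0.19). A second probe set of Slc38a1 differed by -0.02 and 0.41.

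The remaining growth-linked members differed little. Slc7a1 (CAT1), which takes up arginine and lysine, gave 563 with 4OHT and 486 untreated at day 4, and 513 with 4OHT and 504 untreated at day 6. It was 1.15-fold higher at day 4 and 1.02-fold higher at day 6, and a second probe set differed by 0.32 and -0.21. Slc38a2 (SNAT2), whose transcript is known to increase in amino acid shortage, gave 217 with 4OHT and 160 untreated at day 4, and 688 with 4OHT and 645 untreated at day 6. It was higher by 0.40 and 0.09 on this, its brightest probe set. Its 2 dimmer probe sets went the other way on both days, with -0.40 and -0.76 at day 4 and -0.16 and -0.20 at day 6. Slc43a1 (LAT3), a carrier of branched-chain amino acids and phenylalanine, gave 59.0 with 4OHT and 59.1 untreated at day 4, and 34.1 with 4OHT and 30.5 untreated at day 6. Slc7a11 (xCT), the cystine and glutamate exchanger, stayed under the level filter on all 4 arrays (highest 16.3, with 4OHT at day 4).

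**Figure D2:**
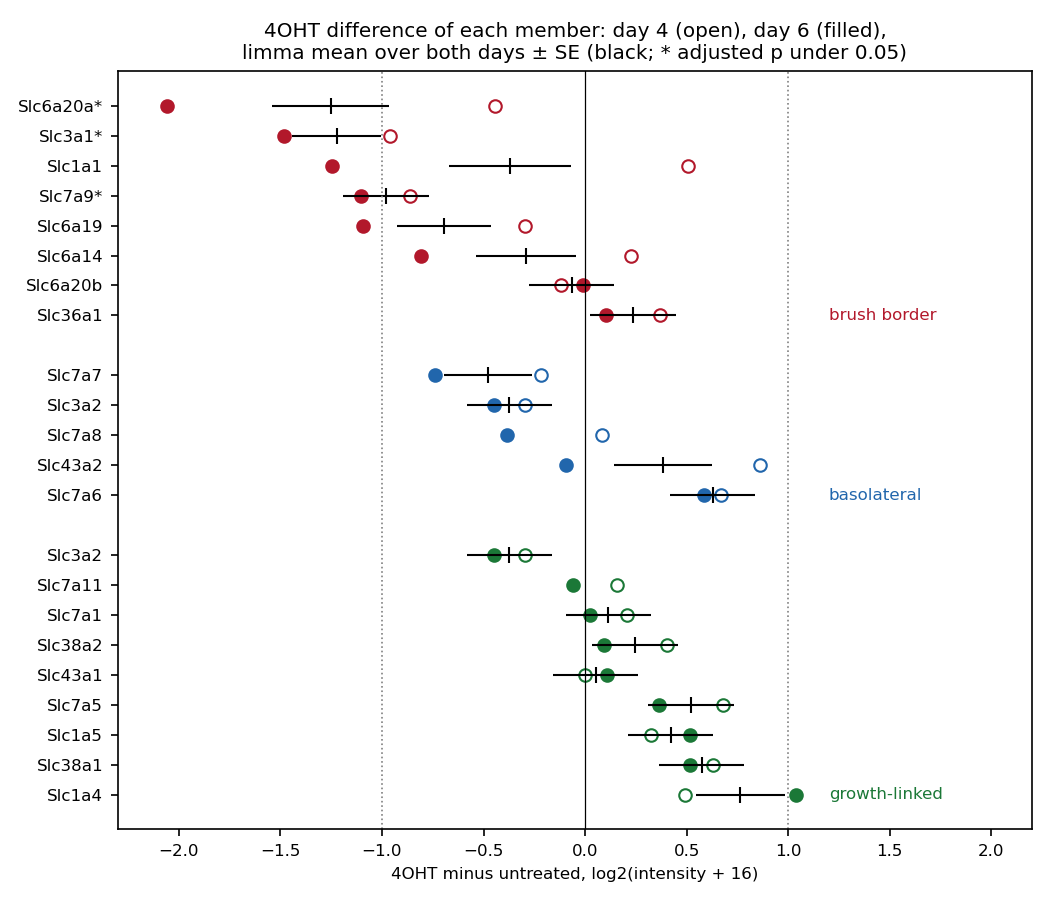
Difference of 4OHT from untreated on the log2(intensity + 16) scale for each brush border, basolateral and growth-linked member, at day 4 (open circles) and day 6 (filled circles), with the limma mean over both days ± SE in black and dotted lines at 2-fold; Slc7a8 and Slc7a11 were not tested. Slc6a20a, Slc3a1 and Slc7a9 (asterisks) are the 3 genes that fell, at -1.25, -1.22 and -0.98, and Slc1a4 is the highest at 0.76.

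Among transporters of neurotransmitters, osmolytes and creatine, 11 of 17 were tested and none passed. Over all genes 0.970% rose and 2.25% fell. Slc6a4, the serotonin transporter, which enterocytes also make, gave 25.6 with 4OHT and 26.0 untreated at day 4, and 39.8 with 4OHT and 108 untreated at day 6. It was 2.22-fold lower at day 6 and level at day 4 (-0.58 ± 0.25, SE, limma adjusted p = 0.30). Slc1a7, a glutamate transporter best known from the retina, was 2.01-fold higher at day 4 (71.5 with 4OHT and 27.4 untreated), beside 1.0% of all genes, and under the level filter at day 6 (18.3 with 4OHT and 17.7 untreated).

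Slc6a6, the taurine transporter, had a pattern like that of Slc1a1. It gave 196 with 4OHT and 131 untreated at day 4, and 317 with 4OHT and 647 untreated at day 6, differences of 0.53 and -0.99. At day 6 all 4 probe sets that reached the filter were lower, by 0.04 to 1.10, and at day 4 the 3 dimmer ones were lower too. Slc6a8, which carries creatine, differed by 0.10 and -0.57. Slc6a7, the proline transporter of neurons, was lower by 0.59 at day 4 (255 with 4OHT and 391 untreated) and by 0.06 at day 6. These 3 were picked for mention once their values were known.

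The other transporter groups held no gene past 2-fold with 4OHT. The 22 tested genes of the family outside the brush border, basolateral and growth-linked groups and below 2-fold on both days lay between -0.59 and 0.54 at day 4, and between -0.99 and 0.71 at day 6. Slc38a10, a widely expressed member of the SNAT family, was at the upper end at day 6 (965 with 4OHT and 586 untreated) and differed by 0.15 at day 4. The 7 probe sets of the gene bright enough to be read did not all go one way on either day. Slc38a9, the lysosomal arginine sensor that signals to mTORC1, differed by 0.06 and 0.32, and Slc38a7, which exports glutamine from lysosomes, by 0.26 and 0.02. The opposite-strand genes Slc7a6os and Slc36a1os differed by 0.24 and 0.19 and by 0.0079 and 0.04. The 20 genes under the level filter reached at most 18.4. They were Slc1a6, Slc6a5, Slc6a11, Slc6a12, Slc6a13, Slc6a15, Slc6a16, Slc6a19os, Slc7a3, Slc7a8, Slc7a10, Slc7a11, Slc7a12, Slc7a14, Slc7a15, Slc36a2, Slc36a4, Slc38a4, Slc38a5 and Slc43a3.

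**Figure D3:**
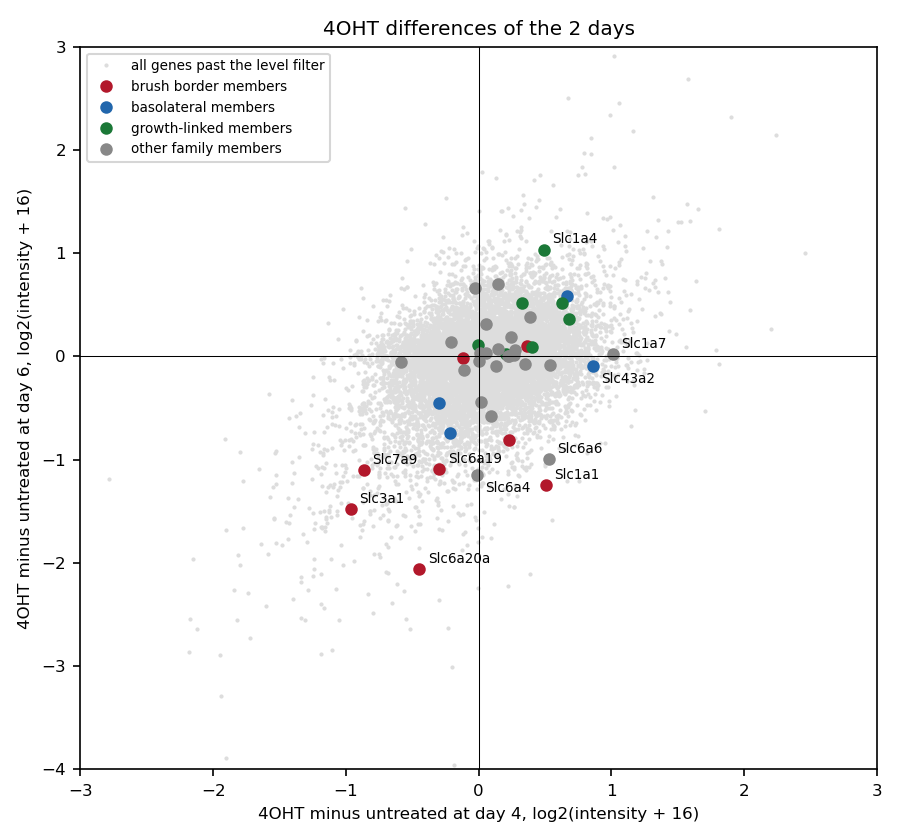
Difference of 4OHT from untreated on the log2(intensity + 16) scale at day 4 (horizontal axis) and day 6 (vertical axis) for the 43 tested family genes, coloured by group (Slc3a2 with the basolateral members), over all 13192 tested genes in light grey. Slc3a1, Slc7a9, Slc6a19 and Slc6a20a lie at the lower left, Slc1a1 and Slc6a6 at the lower right, and Slc1a4 at the top.

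At a looser bound of 1.5-fold, 5 of the 43 family genes were higher with 4OHT at day 4, beside 7.87% of all genes, and 3 were lower, beside 5.62%. At day 6, 4 were higher, beside 4.74%, and 9 were lower, beside 8.76%. The 9 include Slc6a14, which reached the level filter on the untreated array of day 6 alone. Slc7a6 was the one gene 1.5-fold higher on both days, and Slc3a1 and Slc7a9 were 1.5-fold lower on both. The share of all genes at 1.5-fold on both days was not counted, so these cannot be set beside the array as a whole. The day 4 and day 6 contrasts rest on separate arrays. Across the 43 genes, which share the same 4 arrays, the differences of day 4 and day 6 had a Pearson correlation of 0.495 and a Spearman correlation of 0.407, and 67.4% had the same sign, as a description. Over all 13192 genes the values were 0.407, 0.290 and 58.0%. The ratio of 4OHT to untreated was at least 2-fold lower at day 6 than at day 4 for 5 of the 43, beside 3.15% of all genes. They were Slc1a1, Slc6a14, Slc6a20a, Slc6a4 and Slc6a6, of which Slc6a14 reached the level filter on the untreated array of day 6 alone. The ratio was at least 2-fold higher at day 6 for none, beside 0.879%. No family gene was 1.5-fold higher on one day and 1.5-fold lower on the other, beside 0.197%. With 1 array in each group that difference between days was not tested.

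Brush border genes were mostly brighter at day 6 than at day 4, in both arms. The gap between the 3′ and 5′ control probe sets was wider at day 4 than at day 6. For Actb it was 3.90 and then 2.34 with 4OHT, and 2.96 and then 1.72 untreated, in log2 intensity. For Gapdh it was 2.29 and then 1.42 with 4OHT, and 1.42 and then 0.86 untreated. The part of this RNA measure in the differences between days was not tested. In untreated organoids 13 of the 43 family genes were at least 2-fold higher at day 6, beside 24.1% of all genes, and 3 were at least 2-fold lower, beside 5.29%. At 1.5-fold the untreated counts were 16 higher, beside 36.9%, and 7 lower, beside 18.3%. Both untreated counts of higher genes include Slc6a14, which reached the level filter on the untreated array of day 6 alone. In 4OHT-treated organoids 8 were 2-fold higher, beside 16.4%, and 2 lower, beside 2.69%, and at 1.5-fold 11 were higher, beside 29.0%, and 9 lower, beside 14.2%. How the arrays of the 2 days were scaled to each other is unknown, and quantile normalization over the 4 arrays gave 6 higher and 5 lower with 4OHT, beside 9.64% and 8.19% of all genes, and 8 higher and 4 lower in untreated organoids, beside 12.2% and 12.8%.

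Of the 8 brush border members, 4 were at least 2-fold higher at day 6 with 4OHT, beside 16.4% of all genes. They were Slc3a1, Slc6a19, Slc6a20a and Slc7a9. In untreated organoids 7 were, beside 24.1%. Slc6a14, 1 of the 7, reached the level filter on the untreated array of day 6 alone. After quantile normalization the counts were 4 with 4OHT, beside 9.64% of all genes, and 5 untreated, beside 12.2%. Slc6a20a was 8.59-fold higher at day 6 with 4OHT and 26.3-fold higher in untreated organoids, from a dim value at day 4 in both. Slc6a19 was 3.11-fold higher with 4OHT and 5.41-fold higher untreated, and Slc3a1 was 3.40-fold higher with 4OHT and 4.88-fold higher untreated. Slc7a9 was nearly as much higher with 4OHT (4.72-fold) as in untreated organoids (5.57-fold). Slc1a1 differed by -0.20 with 4OHT and by 1.56 in untreated organoids. For 7 of the 8 members the untreated array of day 6 was the brightest of the 4, as it was for 34.6% of all genes tested. The place of Slc6a14 in that count followed from the level filter, and Slc6a20b differed by only -0.01 at day 6. The 5 epithelial markers were also higher at day 6, by unlike amounts. Epcam, a surface adhesion molecule, differed most, by 2.33 with 4OHT and by 2.47 untreated. The keratin gene Krt8 differed least, by 0.18 with 4OHT and by 0.64 untreated.

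Growth-linked members at least 2-fold higher at day 6 numbered 4 with 4OHT and 3 in untreated organoids, beside 16.4% and 24.1% of all genes. After quantile normalization they numbered 2 with 4OHT, beside 9.64%, and 1 untreated, beside 12.2%. Slc38a2 was 3.02-fold higher with 4OHT and 3.75-fold higher untreated, Slc3a2 was 2.53-fold higher with 4OHT and 2.82-fold higher untreated, and Slc38a1 was 2.45-fold higher with 4OHT and 2.65-fold higher untreated. Slc1a5 was just past 2-fold with 4OHT (2.01-fold) and at 1.76-fold untreated. Slc1a4 went the other way, 1.81-fold lower at day 6 with 4OHT and 2.65-fold lower untreated.

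**Figure D4:**
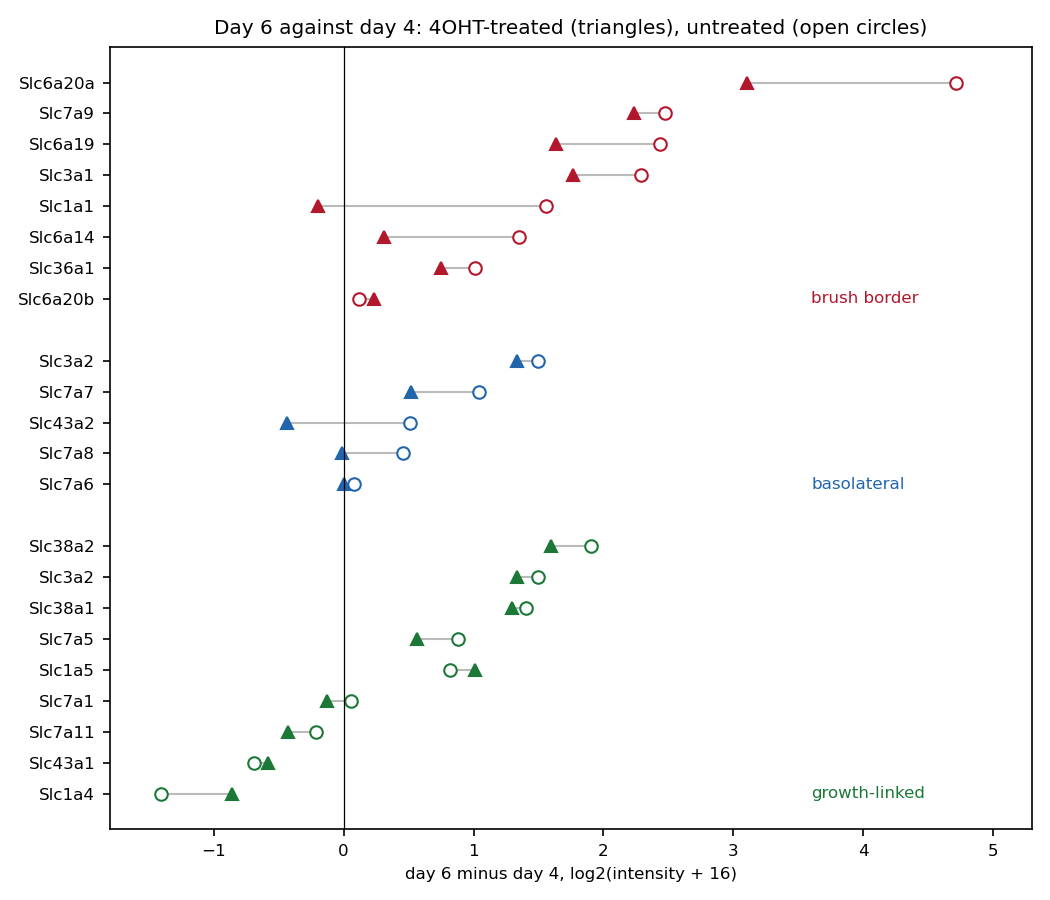
Day 6 minus day 4 on the log2(intensity + 16) scale for each brush border, basolateral and growth-linked member, in 4OHT-treated (triangles) and untreated organoids (open circles). The grey lines joining the arms are longest for Slc1a1 (-0.20 and 1.56) and Slc6a20a (3.10 and 4.72) and short for Slc38a1 (1.29 and 1.40); the scaling between the days is unknown.

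Other genes of amino acid uptake, sensing and use were measured beside the family, and none of the 30 tested passed limma's test in either direction. Over all genes 0.970% rose and 2.25% fell, so that a count of 0 among 30 says little about these genes. Of 17 tested genes of amino acid sensing, the median difference was 0.11 at day 4 and -0.17 at day 6. Sesn3, of the sestrin family of stress proteins that restrain mTORC1, gave 129 with 4OHT and 66.7 untreated at day 4, and 176 with 4OHT and 103 untreated at day 6 (0.75 ± 0.21, SE, limma adjusted p = 0.0655). Rragd, a Rag GTPase that brings mTORC1 to lysosomes, had a difference of -0.16 at day 4 and of -1.16 at day 6. Among 11 genes of the amino acid response and glutamine use, the transcription factor genes Atf4 and Myc differed by -0.08 and -0.12 and by -0.51 and 0.23, and Asns, the asparagine synthetase gene that ATF4 induces, by -0.22 and 0.18. The intestinal peptide transporter gene Slc15a1 gave 14.4 on both arrays of day 4, and 43.1 with 4OHT and 79.8 untreated at day 6. Slc16a10, the basolateral carrier of aromatic amino acids, differed by 0.61 and -0.89. These genes were named after their values were seen.

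Epithelial markers were present on all arrays: Epcam, Cdh1, Vil1, Krt8 and Krt19 summed to 11018 with 4OHT and 9818 untreated at day 4, and to 18932 with 4OHT and 22432 untreated at day 6. Krt8, a keratin, made up much of this sum (7398 with 4OHT and 6133 untreated at day 4), and the members differed in direction: Cdh1, the epithelial cadherin, was higher with 4OHT by 0.80 at day 4, and the keratin gene Krt19 was lower by 0.82 at day 6. None of the 5 passed the test. Of 17 markers of fibroblasts and muscle, endothelium, immune cells and enteric neurons and glia, 16 were measured, 11 were tested and none passed. Over all genes 0.970% rose and 2.25% fell. Ptprc, Cd68, Col1a2, Elavl4 and Uchl1 stayed under the level filter. The 5 fibroblast and muscle markers summed to 167 with 4OHT and 175 untreated at day 4, and to 107 with 4OHT and 101 untreated at day 6. The 3 endothelial markers summed to 70.4 with 4OHT and 81.1 untreated at day 4, and to 43.1 with 4OHT and 39.5 untreated at day 6. The 4 immune markers gave 174 with 4OHT and 157 untreated, then 93.0 with 4OHT and 93.2 untreated, and the 4 measured markers of neurons and glia 105 with 4OHT and 80.4 untreated, then 61.9 with 4OHT and 57.5 untreated. Of the 3 family genes that fell, none passed limma with the level filter dropped, the pseudocount set to 1 or 64, or the day term removed. Slc6a20a also missed with the filter on the mean (adjusted p = 0.0883), the mean of all probe sets (0.0524) and quantile normalization (0.0532).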

How the data were processed

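Total RNA was labelled by 3′ in vitro transcription for Affymetrix arrays, per the labels' protocols. The authors deposited an intensity on a linear scale for each probe set; background correction, summary method and scaling are not given in the sources used here. Array medians were 21.9 and 22.0 at day 4 and 19.5 and 19.3 at day 6 (4OHT, untreated).

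Of the probe sets, 34945 named 1 gene in the platform annotation. The brightest per gene (mean log2(intensity + 16)) was kept. Genes whose highest value reached 20.9 were tested with limma 3.58.1 in R 4.3.3 (4OHT and day as additive terms; 15.2 prior degrees of freedom, prior SD 0.215), after a check on simulated data. Single days were described at 2-fold, with no test. Python 3.11.15, pandas 2.3.3, numpy 2.4.6 and matplotlib 3.10.9 were used. Promoter windows were RefSeq's on GRCm38.p6.

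The genes, groups and lists were chosen with earlier results of these data known. Slc6a21 and the opposite-strand genes were placed in their groups after the files were read. Slc38a8 and Slc38a11 were listed but are not analysed here. Named genes were all brush border, basolateral and growth-linked members, other members past 2-fold with 4OHT on either day or past the test, and pathway genes past the test; others named were chosen after their values were seen. Alternatives changed the level filter, the probe-set choice, the scaling, the pseudocount, the thresholds and the arrays used.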

Additional observations from a re-analysis of the deposited data

How the results depend on the processing

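No paired analysis by replicate was possible because each group held 1 array; the day term of the limma fit already sets 4OHT against untreated within each day, and the fit without it is the unpaired one. The counts of family genes rest on few genes, and 1 array per group limits every value. With 4OHT at day 4, where 1 gene was 2-fold higher and none lower, there were 0 higher with a pseudocount of 64 and at 3-fold, 5 higher and 3 lower at 1.5-fold, and 2 lower (Slc3a1 and Slc7a9) both with a pseudocount of 1 and after quantile normalization. At day 6, where 1 was higher and 6 lower, there were 0 higher with the mean of all probe sets, with a pseudocount of 64 and at 3-fold, 4 higher at 1.5-fold, and 3 lower with a pseudocount of 64 and after quantile normalization, and 1 lower at 3-fold. On both days together, 0 at the main setting in each direction became 1 higher and 2 lower at 1.5-fold, 2 lower with a pseudocount of 1 and 1 lower after quantile normalization. No gene moved 1.5-fold in opposite directions on the 2 days, and 1 did with a pseudocount of 1 (Slc6a14).

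In limma, 1 gene (Slc1a4) rose at an adjusted p under 0.1, and of the 3 that fell 0 passed with the filter dropped, with the pseudocount at 1 or 64, or with the day term removed. Leaving out single arrays, with no day term, left 0 to 1 that fell and 0 that rose; the 1 was Slc6a20a, without the untreated array of day 4. In those fits the difference of Slc3a1, -1.22 over all 4 arrays, ran from -2.37 without the untreated array of day 4 to -0.079 without the untreated array of day 6. That of Slc6a20a ran from -3.61 to 1.11 (0.30 without the 4OHT array of day 4) and that of Slc7a9 from -2.22 to 0.26 (0.14 without the 4OHT array of day 4), Slc6a20a and Slc7a9 turning above 0 without the 4OHT array of day 4 or the untreated array of day 6. Such a fit sets unequal mixes of the days against each other.

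For day 6 against day 4 in untreated organoids, the 13 higher became 8 when all probe sets were averaged and after quantile normalization and 6 at 3-fold, and the 3 lower became 1, 5, 7 and 0 with the mean of all probe sets, a pseudocount of 1, 1.5-fold and 3-fold in turn. With 4OHT, the 8 higher became 5 with the mean of all probe sets, with a pseudocount of 64 and at 3-fold. The 2 lower became 1 with the filter at the 75th percentile, when all probe sets were averaged and with median centring, 6 with a pseudocount of 1, 0 with a pseudocount of 64 and at 3-fold, 5 after quantile normalization and 9 at 1.5-fold. These alternatives on the days were chosen after seeing the data.

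Over the alternatives run, the day 4 median of the brush border members lay between -0.45 (filter at the 75th percentile) and -0.10, that of the basolateral members between 0.03 and 0.23, and that of the growth-linked members between 0.19 and 0.40. The day 6 medians lay between -1.28 and -0.91, between -0.49 and -0.14 (pseudocount of 64), and between 0.08 and 0.36 (filter at the 75th percentile) for the same groups. No group median changed sign. The causes were not tested, beyond fewer genes passing stricter filters and thresholds.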
